A study of Mus musculus with 4 samples.

Results

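Single-cell RNA sequencing of hematopoietic stem and progenitor cells (HSPCs) from the bone marrow of young and old mice was examined for one class of cells, the HSC-like cells in which no Vwf transcript was counted. Members were chosen by their own UMI counts for 9 genes. A cell belonged to this class when it held at least 1 unique molecular identifier (UMI, a tag that marks 1 captured transcript) for 3 or more of 6 stem cell markers, Hlf, Mecom, Fgd5, Hoxb5, Ctnnal1 and Tcf15, and none for Cd48, Flt3 or Vwf. This gave 1216 members among 14915 cells kept after a filter on UMIs per cell. The members were 394 cells of young pool A, 77 of young pool B, 462 of old pool A and 283 of old pool B. The cells that met the same rule but held at least 1 Vwf UMI, used below as the comparison class, numbered 61, 15, 301 and 290 in that order.

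All mice were C57BL/6-CD45.2 males, aged 2 to 3 months (young) or 17 to 18 months (old), and no treatment or engineered allele is named in the labels. Cells were sorted as lineage-negative, Sca1-positive, cKit-positive and Flt3-negative, so the class lies within a gate that already excludes Flt3 protein at the cell surface. Young pools A and B held marrow of 2 and 3 mice and old pools A and B of 3 and 2, and the mice of a pool cannot be separated. The A pools were captured and sequenced at one facility (HalioDX) and the B pools at another (TGML), and the free-text labels of young pool B and old pool A name the opposite age, whereas titles and source names give the ages used here.

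Long-term hematopoietic stem cells sit at the top of blood formation and are kept for life. Vwf encodes von Willebrand factor, a clotting protein of platelets and endothelium, and HSCs that transcribe it are known for a platelet and myeloid bias, whereas HSCs without it include those with more balanced or lymphoid output. Hlf and Mecom encode transcription factors needed for HSC maintenance, Fgd5 a guanine nucleotide exchange factor restricted to HSCs and endothelium, Hoxb5 and Tcf15 transcription factors that mark long-term HSCs, and Ctnnal1 alpha-catulin, another HSC marker. Cd48 and Flt3 mark progenitors that have left the long-term compartment.

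The label of the class was checked against genes that the rule did not use. Procr, the endothelial protein C receptor carried by HSCs, was detected in 59.1% and 71.4% of members in young pools A and B and in 71.2% and 82.7% in old pools A and B. In cells of the same pools with an erythroid-primed profile, which should lack it, the shares were 11.2%, 8.77%, 19.6% and 11.3%, although the median depth of those cells was higher (9409, 11240, 8457 and 10538 UMIs against 6065.5, 6373, 6067.5 and 7752 in members). With every cell thinned to 3000 UMIs, Procr was seen in 34.5%, 45.5%, 49.0% and 51.6% of members and in 6.37%, 3.57%, 5.61% and 2.82% of erythroid-primed-like cells. Meis1, a homeobox factor of HSCs, was seen in 60.7%, 39.0%, 58.1% and 50.2% of thinned members and in 21.5%, 14.3%, 32.7% and 25.4% of thinned erythroid-primed-like cells. In neutrophil-primed-like cells of the same pools, thinned shares were 12.4%, 13.2%, 29.0% and 5.33% for Procr and 36.4%, 29.1%, 48.1% and 24.0% for Meis1. These lay below the members of the same pool in each case. HSC-like cells, with or without Vwf, that also met the marker count of a primed class were left out of both primed classes here. Esam, an endothelial adhesion molecule of HSCs, was seen in 23.6%, 32.5%, 35.6% and 38.9% of thinned members and in 3.59%, 3.57%, 5.61% and 14.1% of thinned erythroid-primed-like cells. Gata2 and Slamf1 did not set the class apart in every pool. Gata2, a transcription factor of HSCs and early erythroid and mast cells, was seen in 45.7%, 16.9%, 52.1% and 28.3% of thinned members against 55.0%, 32.1%, 47.7% and 25.4% of erythroid-primed-like cells, and so less often in both young pools. Slamf1, which encodes CD150, was seen in 4.82%, 6.49%, 13.4% and 12.01% against 6.37%, 5.36%, 5.61% and 2.82%. Genes of mature blood cells were counted unevenly: no member held a UMI for Ms4a1, Pax5, Cd3d, Cd8a, Rag1 or Rag2, whereas Lyz2 stood between 353 and 456 CPM, Igkc between 50.7 and 675 CPM and Nkg7 between 24.0 and 61.1 CPM.

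The rule reads 6 markers of unequal abundance, and 2 of them, Tcf15 and Hoxb5, differed by facility. Hlf was counted at 301, 304, 354 and 279.9 CPM (UMIs of the gene per 1000000 UMIs of the summed cells) in members of young A, young B, old A and old B, Mecom at 143, 164, 199 and 117, Fgd5 at 38.1, 50.7, 47.5 and 37.1, and Ctnnal1 at 35.7, 45.4, 36.9 and 38.7. Tcf15 stood at 119 and 139 CPM in the A pools but at 6.99 and 14.7 CPM in the B pools, and Hoxb5 at 45.1 and 53.4 CPM in the A pools against 92.6 and 84.7 in the B pools. Tcf15 was detected in 71.1% of members of young A and 67.7% of old A, but in 5.19% of young B and 13.1% of old B. Hoxb5 was detected in 28.4% and 32.5% of members of young A and old A and in 58.4% and 63.6% of young B and old B. The member share is therefore not comparable across facilities. Within a facility the pools also differed in sequencing depth, since the study's methods give more reads per cell for young B and old A than for young A and old B. These levels were fixed in part by the rule and are given as a description.

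Most members sat at the edge of the rule. Of cells without Cd48, Flt3 and Vwf UMIs, 323, 69, 337 and 230 held exactly 3 markers in young A, young B, old A and old B and so were just inside, whereas 904, 424, 711 and 672 held 2 and were just outside. The median depth was 6024, 6359, 5958 and 7468.5 UMIs for the cells with 3 markers and 5696, 5953.5, 5479 and 6573.5 for those with 2. No member of a young pool and 2 members of old A held all 6 markers. A further 148, 23, 72 and 15 cells had 3 or more markers but were left out because they held a Cd48 or Flt3 UMI.

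Members made up 7.59% of kept cells in young A (95% exact binomial interval 6.89% to 8.35%), 3.43% in young B (2.72% to 4.27%), 13.9% in old A (12.7% to 15.1%) and 6.81% in old B (6.07% to 7.62%). The old pool was higher than the young pool on both platforms, by 6.29 percentage points on A and 3.38 on B, but the groups overlapped, because young A lay above old B. The mean difference of 4.84 percentage points had a two-sided exact permutation p of 0.67, and 2 pools against 2 cannot give a p below 0.33. That permutation exchanged pools across facilities, between which the member share is not comparable. Neither its p nor the overlap of young A with old B takes account of the pairing by facility. With each cell thinned to 3000 UMIs the shares were 2.29%, 1.05%, 5.14% and 1.42%, and the difference on platform B shrank to 0.373 percentage points. The difference of the means was 6.92 percentage points without young A, 2.75 without young B, 1.30 without old A and 8.37 without old B. The intervals cover counting error only.

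Among all HSC-like cells, the share without a Vwf UMI was lower in old pools. It was 86.6% in young A (83.1% to 89.6%), 83.7% in young B (74.5% to 90.6%), 60.6% in old A (57.0% to 64.0%) and 49.4% in old B (45.2% to 53.6%). The groups did not overlap, old minus young was -26.0 percentage points on A and -34.3 on B, and the exact permutation p was 0.33, the smallest that this design allows. Thinned to 3000 UMIs, the shares were 90.8%, 100%, 75.0% and 78.7%, so that the mean difference changed from -30.2 to -18.6 percentage points. In young B the thinned class held 23 cells, and none of them had Vwf.

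**Figure D1:**
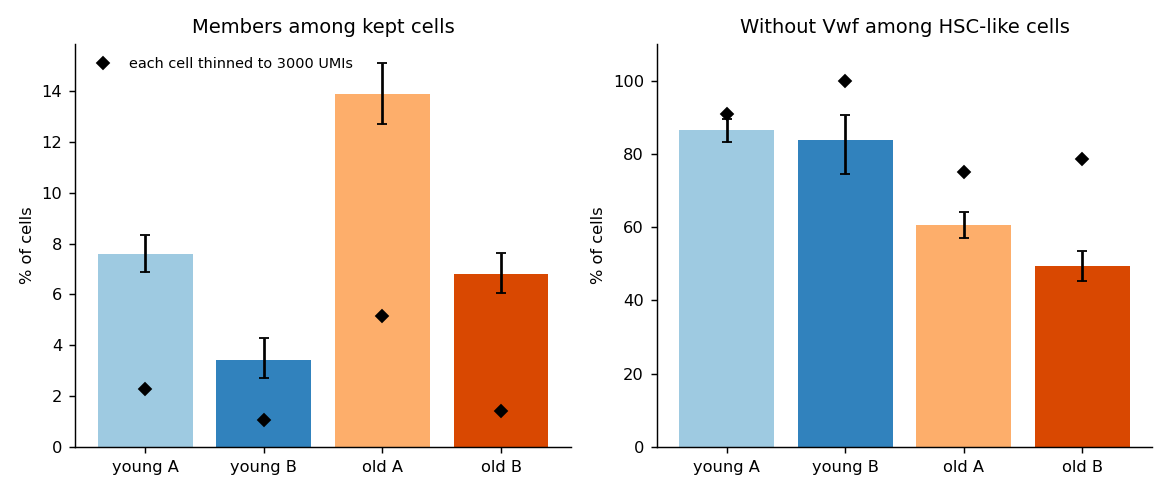
Share of members among kept cells (left) and share without Vwf among HSC-like cells (right), in % of cells, for the 4 pools; bars with exact 95% binomial intervals, and diamonds for cells thinned to 3000 UMIs. Old A has the highest member share (13.9%), while in the right panel both old bars (60.6% and 49.4%) lie below both young bars (86.6% and 83.7%).

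The absence of a Vwf UMI is not the absence of Vwf transcription, and depth bears on membership directly. Members held a median of 6065.5, 6373, 6067.5 and 7752 UMIs in young A, young B, old A and old B, and HSC-like cells with Vwf 6447, 6327, 7452 and 11886. Of the latter, 50 of 61, 13 of 15, 199 of 301 and 172 of 290 held a single Vwf UMI. In old pools the share without Vwf went from 74.7% (old A) and 80.8% (old B, 26 cells) below 5000 UMIs to 62.6% and 65.0% between 5000 and 10000, and to 35.2% and 34.5% at 10000 and more. In young A it was 86.3%, 86.8% and 86.4% over the same bins, and in young B 94.4%, 79.6% and 85.0% with 18, 54 and 20 cells. The share without Vwf thus went down with depth in the old pools and not in young A. How many old members would show Vwf at greater depth was not tested.

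**Figure D2:**
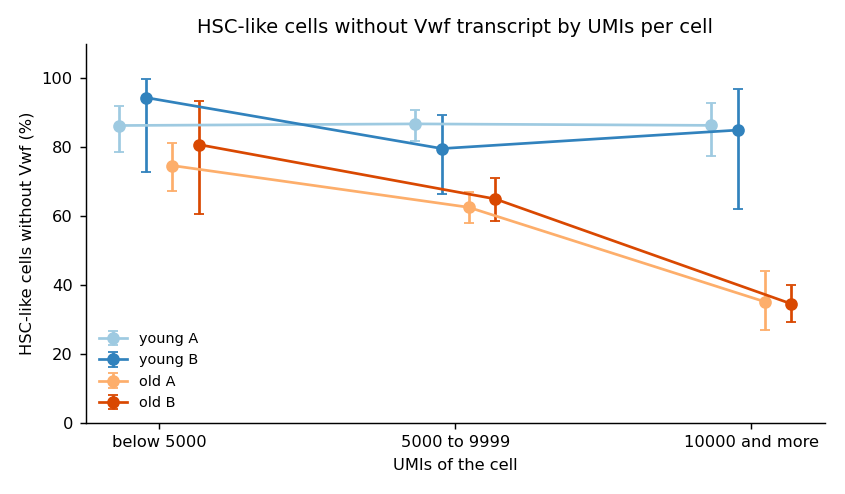
Share of HSC-like cells without Vwf (%) against UMIs of the cell in 3 bins, 1 line per pool, with exact 95% binomial intervals. The old lines fall to 35.2% and 34.5% in the deepest bin, while young A stays between 86.3% and 86.8%.

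The main comparison asked which genes differed with age within the class, that is, among cells in which Vwf itself was not seen. UMIs of the members were summed per pool (2857410, 572425, 3033773 and 2587096 UMIs) and compared with edgeR's quasi-likelihood test with platform as a block, and the 9 genes of the rule were not tested. Log2 fold changes below are old over young from this fit, with their standard error over 4 pools, and p-values are adjusted by Benjamini-Hochberg over all genes tested. Of 10437 genes tested, 128 were higher (1.23%) and 51 lower (0.489%) in old members, 1.72% in all, and 960 had an unadjusted p under 0.05. Of these 179 genes, 175 moved the same way on both platforms and 162 had pools that did not overlap in CPM between the ages, against 26.4% of all genes tested. The median log2 fold change of all genes was 0.02, and 52.2% were above 0. The number rests on few pools and on the block, since the fit leaves 1 residual degree of freedom among pools. Fits with 1 pool left out have no room for the block and were made without it, and without the block all 4 pools together gave 11 calls. Genes called without young A or without young B were only in part among the 179. Without old A 14 genes were called, all among the 179, and without old B none (501 at an unadjusted p under 0.05), while DESeq2 called 35 (0.335%), 33 higher (0.316%) and 2 lower (0.0192%), also all among the 179. Of 51 called genes that the naming rule picked for age or from the lists, 19 remained called without young A, 12 without young B, 9 without old A (Matn4, Sbspon, Cldn5, Nupr1, Selp, Mt2, Clca3a1, Sult1a1 and Sdpr) and none without old B.

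The 10 genes with the largest rise were Matn4, Igha, Sbspon, Hes1, Cldn5, Nupr1, Selp, Mt2, Clca3a1 and Plk2. Matn4 (ENSMUSG00000016995, chr2:164389393-164405160, GRCm38), which encodes the matrix protein matrilin-4, stood at 0.700, 0, 76.1 and 95.9 CPM in young A, young B, old A and old B. It was counted only 2 times in all young members and 479 times in old ones, a ratio of 146 with a counting interval of 40.2 to 1210. Nupr1 (chr7:126623249-126630861), a stress-induced chromatin-associated protein, rose from 18.2 and 34.9 CPM to 410 and 607 (log2 fold change 4.29 ± 0.31, edgeR adjusted p = 1.2e-06). It was seen in 9.64% and 11.7% of young and 79.9% and 93.3% of old members, and in 4.57%, 7.79%, 61.7% and 77.0% after thinning. Young and old pools were far apart for both genes. The rise was not confined to this class. In kept cells outside both HSC-like classes Matn4 stood at 0.785, 0.891, 50.9 and 83.5 CPM and Nupr1 at 12.1, 19.3, 347 and 538.

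Selp (chr1:164115264-164150026), P-selectin, an adhesion receptor of platelets and endothelium, rose from 5.60 and 6.99 CPM to 122 and 95.1 (4.19 ± 0.32, edgeR adjusted p = 1.3e-06). Cldn5, a tight junction claudin of endothelium, rose from 5.95 and 1.75 CPM to 105 and 171 (4.54 ± 0.38). Sbspon, which encodes a somatomedin B and thrombospondin domain protein, rose from 1.40 and 1.75 CPM to 41.2 and 122, and Clca3a1, a chloride channel accessory protein, from 4.55 and 5.24 CPM to 80.4 and 70.3. Matn4, Sbspon, Cldn5, Nupr1, Selp and Clca3a1 remained called with DESeq2 and when old A was left out.

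Mt2, a metallothionein that binds zinc and copper, rose from 4.90 and 8.73 CPM to 81.7 and 155 (4.03 ± 0.31, edgeR adjusted p = 1.3e-06), and Mt1, its neighbour on the same chromosome, from 36.4 and 40.2 CPM to 269 and 376 (3.00 ± 0.28, edgeR adjusted p = 1.2e-05). Mt2 was also called without old A. Both genes moved together, and their upstream sequences are shown because each holds the core letters of the metal response element, TGCACNC or TGCGCNC on either strand, in the 250 bases before the RefSeq start. Of 27025 promoters of this length, 21.3% hold such a match, and capitals mark it.
Mt1 (chr8:94178839-94179088, plus strand, GRCm38.p6): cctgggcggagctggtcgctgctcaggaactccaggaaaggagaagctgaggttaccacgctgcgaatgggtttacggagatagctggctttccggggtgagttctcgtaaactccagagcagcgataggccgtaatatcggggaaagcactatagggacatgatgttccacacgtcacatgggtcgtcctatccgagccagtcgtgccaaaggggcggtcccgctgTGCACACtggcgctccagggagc
Mt2 (chr8:94172368-94172617, plus strand, GRCm38.p6): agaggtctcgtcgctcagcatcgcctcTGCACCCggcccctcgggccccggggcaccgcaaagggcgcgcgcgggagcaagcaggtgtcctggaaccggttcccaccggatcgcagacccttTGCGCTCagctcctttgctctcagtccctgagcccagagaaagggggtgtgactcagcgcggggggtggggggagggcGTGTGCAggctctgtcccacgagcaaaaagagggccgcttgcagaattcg
Mt1 has 1 match and Mt2 has 3. A match is a run of letters and does not show that a factor was bound.

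Of the 10 genes with the largest rise, 3 were highest in old A by a wide margin. Hes1, a Notch target, stood at 13.6, 1.75, 408 and 2.32 CPM, and its fitted log2 fold change of 4.67 turned to -1.84 when old A was left out. Igha, an immunoglobulin heavy chain gene, stood at 4.90, 0, 211 and 8.50 CPM, and Plk2, a stress-responsive kinase, at 5.95, 0, 80.1 and 9.66 CPM. On platform B, Igha was counted 22 times in old and 0 times in young members and Plk2 25 times and 0 times, so that the old pool was higher on both platforms for both genes, and DESeq2 called both (adjusted p = 1.1e-08 and 0.0045). Without old A, in a fit without the block, neither was called by edgeR (log2 fold changes 1.41 and 1.34).

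**Figure D3:**
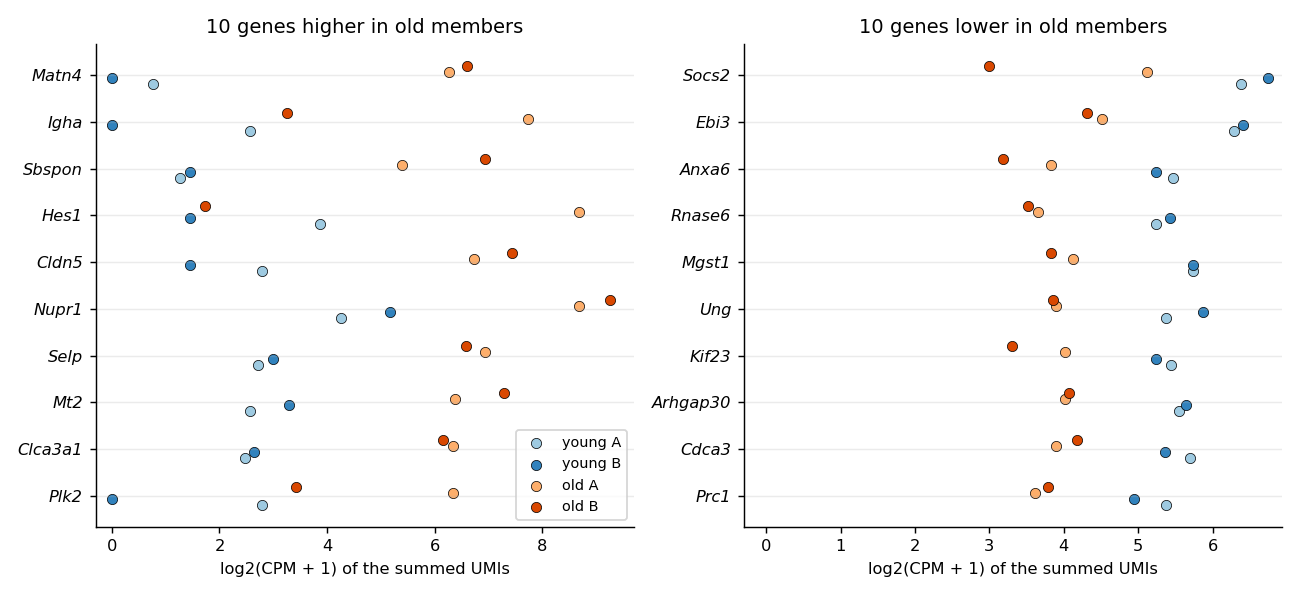
Level of the 10 genes with the largest rise (left) and the 10 with the largest fall (right) in members, as log2(CPM + 1) of the summed UMIs, 1 point per pool. Both old points lie to the right of both young points for Matn4 and Nupr1, whereas for Hes1 old B (2.32 CPM) lies with the young pools, and in the right panel both old points lie to the left of both young points for each gene.

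The 10 genes with the largest fall were Socs2, Ebi3, Anxa6, Rnase6, Mgst1, Ung, Kif23, Arhgap30, Cdca3 and Prc1. Socs2 (chr10:95385362-95417180), a suppressor of cytokine signalling, fell from 82.2 and 106.6 CPM to 33.6 and 6.96 (-2.34 ± 0.40, edgeR adjusted p = 0.0038). Ebi3 (chr17:55952640-55957022), a subunit of the cytokines IL-27 and IL-35, fell from 77.3 and 83.9 CPM to 21.8 and 18.9 (-2.0 ± 0.25, edgeR adjusted p = 0.00021). Mgst1, a microsomal glutathione transferase, fell from 52.5 and 52.4 CPM to 16.5 and 13.1, and Anxa6, a membrane-binding annexin, from 43.0 and 36.7 CPM to 13.2 and 8.12. Rnase6, a secreted ribonuclease, and Arhgap30, a GTPase-activating protein, also fell (-1.84 ± 0.31 and -1.64 ± 0.28). Of these, Socs2 and Ebi3 were the only ones also called by DESeq2, and none was called when old A or old B was left out.

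The summed level of 20 mitosis genes was 965 and 641 CPM in members of young A and young B and 359 and 387 CPM in old A and old B. On platform B much of this difference came from 1 cell, since without 1 member of young B the sum there was 384 CPM. With the member with most mitosis UMIs left out of each pool, young B stood at 384 and old B at 317 CPM. Of 20 mitosis genes tested, 6 fell, Top2a, Ube2c, Birc5, Cdk1, Cdc20 and Kif23, none rose, and the median log2 fold change was -1.22 against 0.02 for all genes. The other 14 also had values below 0, up to -0.27, but did not pass. Top2a (chr11:98992943-99024189), a topoisomerase that untangles chromosomes, went from 111 and 90.8 CPM to 39.6 and 39.0 (-1.40 ± 0.24, edgeR adjusted p = 0.0043). Ube2c (chr2:164769898-164778822), the ubiquitin-conjugating enzyme of the anaphase-promoting complex, went from 86.8 and 69.9 CPM to 25.1 and 40.6 (-1.37 ± 0.28, edgeR adjusted p = 0.018). Birc5 (survivin) went from 91.7 and 59.4 CPM to 31.6 and 32.9, and Cdk1, the kinase that drives entry into mitosis, from 82.9 and 48.9 CPM to 27.0 and 32.5. Kif23, Prc1 and Cdca3, which act in cytokinesis or mitotic entry, were among the 10 largest falls, at -1.73, -1.63 and -1.64. Both old pools lay below both young pools for each of these genes. The sum of the 20 genes was also lower with age in kept cells outside both HSC-like classes (1116, 922, 554 and 701 CPM in young A, young B, old A and old B). In HSC-like cells with Vwf (932, 246, 504 and 699 CPM) and neutrophil-primed-like cells (1656, 1045, 933 and 1418 CPM) it was lower on platform A only. In erythroid-primed-like cells it was higher with age on both platforms (1410, 1503, 2255 and 1870 CPM).

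Young B had 77 members, and 1 of them held 151 of its 367 mitosis UMIs (41.1%), with 62.5% of the Ube2c, 52.9% of the Prc1, 52.0% of the Cdc20, 39.3% of the Cdk1 and 35.3% of the Birc5 UMIs. Without that cell young B stood at 26.7 CPM for Ube2c, 21.3 for Cdc20 and 30.2 for Cdk1, below the 40.6, 28.6 and 32.5 CPM of old B, but at 71.2 CPM for Top2a, 39.1 for Birc5 and 35.6 for Kif23, above both old pools. Both old pools lay below both young pools for 17 of the 20 genes with all members, for 4 without that cell of young B, and for 6 without the member with most mitosis UMIs in each pool. Of all genes tested, with all members, 26.4% had ages that did not overlap, in either direction. The share in this direction alone, or without those members, was not computed, so 4 and 6 of 20 have no like background here. The member with the most mitosis UMIs held 7.29% of them in young A, 9.46% in old A and 18.9% in old B, and without it in each pool the sums were 900.1, 384, 326 and 317 CPM. A fit without this member in each pool, added after the data were seen, called 2 of the 20 genes, Top2a (-1.37 ± 0.26, edgeR adjusted p = 0.012) and Kif23 (-1.80 ± 0.32, edgeR adjusted p = 0.0071). All 20 values remained below 0 in that fit, with a median of -1.05, while Ube2c (-1.05 ± 0.37) had an edgeR adjusted p of 0.31. Cdca3 was still called there and Prc1 was not.

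Cells with several mitosis genes were counted as well. After thinning to 3000 UMIs, 27 of 394 young A members (6.85%) and 3 of 77 young B members (3.90%) held at least 5 of the 20 mitosis genes, against 9 of 449 in old A (2.00%) and 8 of 283 in old B (2.83%). In thinned HSC-like cells with Vwf the shares were 6.56%, 6.67% (1 of 15 cells), 4.75% and 7.59%, and in erythroid-primed-like cells 19.1%, 21.4%, 34.6% and 23.9%. Members of old pools had the lowest shares of these classes, young B rests on 3 cells, and the difference was not tested per cell.

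Promoters of the mitosis genes are shown because the genes moved together and because CCAAT boxes are a known feature of them. CCAAT was searched on both strands (ATTGG on the other) in the 250 bases before the RefSeq start. It was found in 5 of the 6 genes that fell and in 16 of the 18 mitosis genes with an entry, against 34.5% of 27025 promoters. TTTGAA, the core of the cell cycle homology region, was found in 4 of the 6, in 7 of the 18 and in 16.3% of all promoters. The capitals mark CCAAT on either strand, with 6 matches in each gene, of which a pair overlaps in Ube2c.
Top2a (chr11:99024190-99024439, minus strand, GRCm38.p6): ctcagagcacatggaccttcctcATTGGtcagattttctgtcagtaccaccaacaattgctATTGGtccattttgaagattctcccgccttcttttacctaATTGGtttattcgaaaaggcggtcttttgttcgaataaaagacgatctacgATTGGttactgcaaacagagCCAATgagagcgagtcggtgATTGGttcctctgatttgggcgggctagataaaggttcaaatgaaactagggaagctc
Ube2c (chr2:164769679-164769928, plus strand, GRCm38.p6): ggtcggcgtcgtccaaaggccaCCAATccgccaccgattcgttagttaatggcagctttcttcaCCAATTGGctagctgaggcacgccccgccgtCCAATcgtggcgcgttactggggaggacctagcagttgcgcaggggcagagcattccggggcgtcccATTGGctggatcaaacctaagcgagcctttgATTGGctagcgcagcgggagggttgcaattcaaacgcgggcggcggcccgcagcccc
The list was not chosen for these letters, and no binding was measured.

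Of 20 DNA replication genes tested, Ung, Mcm7 and Fen1 fell, none rose, and the median log2 fold change was -0.82. The list sum was also lower with age on both platforms in kept cells outside both HSC-like classes (1795, 1578, 1307 and 1047 CPM in young A, young B, old A and old B). The same held for HSC-like cells with Vwf (1239.5, 1405.5, 950 and 721 CPM). In neutrophil-primed-like cells it was lower on platform A only (2504, 2099, 1919.5 and 2143 CPM). In erythroid-primed-like cells it was higher on both (2710, 2483, 3093 and 2525 CPM). Ung, the uracil-DNA glycosylase, went from 40.2 and 57.6 CPM to 13.8 and 13.5 (-1.81 ± 0.29, edgeR adjusted p = 0.0023), Mcm7, a subunit of the replicative helicase, from 115 and 117 CPM to 62.0 and 49.5 (-1.09 ± 0.24), and Fen1, the flap endonuclease, from 59.1 and 47.2 CPM to 29.0 and 24.0 (-1.04 ± 0.26). Among 16 cyclins and CDK inhibitors, Cdkn1a (p21) and Cdkn2c (p18) rose. Neither was called by DESeq2. Cdkn2c went from 18.9 and 10.5 CPM to 43.5 and 35.2 (1.30 ± 0.31). Cdkn1a stood at 12.2, 8.73, 61.3 and 10.1 CPM, so that its rise was in old A, and without that pool its log2 fold change was 0.03. None of these 9 mitosis and replication genes was called by DESeq2, and with 1 pool left out Ung alone was called, without young A, although no value of the 9 changed sign. Without the member with most mitosis UMIs in each pool, Ung and Mcm7 were still called and Fen1 was not (edgeR adjusted p = 0.066).

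**Figure D4:**
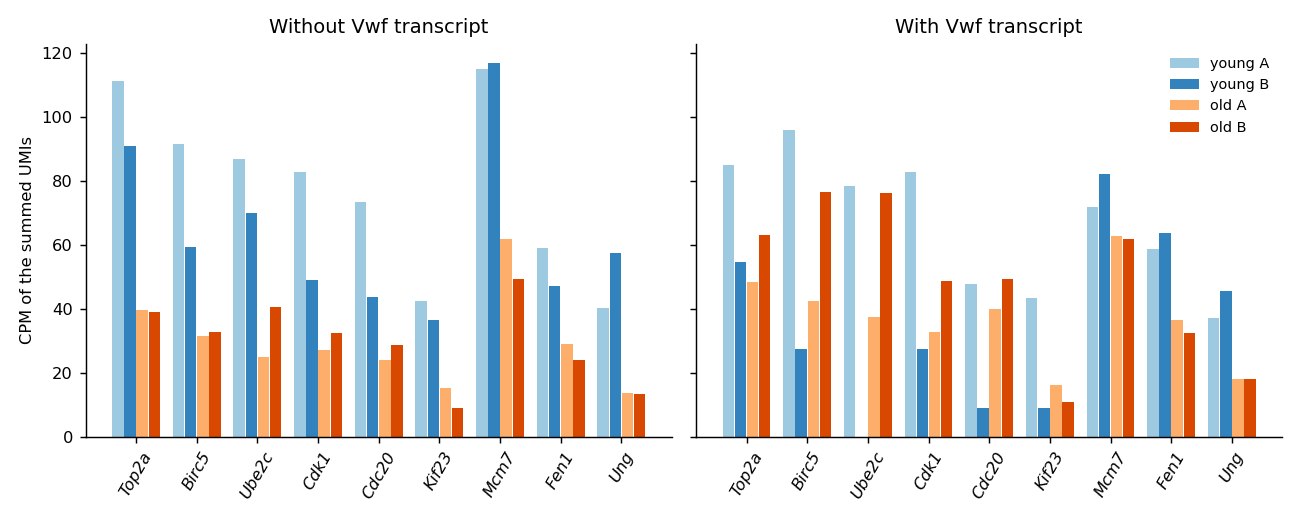
CPM of 6 mitosis and 3 replication genes that fell in members (left) and the same genes in HSC-like cells with Vwf (right), 1 bar per pool. On the left both old bars are lower than both young bars for all 9 genes, where 1 cell of young B holds 62.5% of its Ube2c, 52.0% of its Cdc20 and 39.3% of its Cdk1 UMIs. On the right Ube2c in old B (76.2 CPM) is near young A (78.4 CPM), and young B rests on 15 cells.

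Some genes of the platelet and megakaryocyte lineage rose in old members, in which Vwf itself was absent by the rule. Of 24 tested, 6 rose, Clu, Selp, Sdpr, Fhl1, Itgb3 and Plek, none fell, and the median log2 fold change was 0.67. Clu, Selp and Sdpr were also called by DESeq2, and Fhl1 was not. Clu (chr14:65968483-65981547), the chaperone clusterin, rose from 13.6 and 38.4 CPM to 168 and 215 (3.07 ± 0.30, edgeR adjusted p = 1.7e-05). Sdpr, a caveola protein abundant in platelets, rose from 27.3 and 22.7 CPM to 176 and 153 (2.67 ± 0.27, edgeR adjusted p = 2.0e-05), and Itgb3, the beta-3 integrin of the fibrinogen receptor, from 5.95 and 3.49 CPM to 33.6 and 29.4. The ages did not overlap for these genes. Pf4, platelet factor 4, which defines megakaryocytes, stood at 107, 68.1, 71.5 and 62.6 CPM and Ppbp was not called, while Tubb1 and Thbs1 were not counted in any member. The summed level of the list was 1552 and 1492 CPM in young and 2699 and 2528 CPM in old members, with Cd63 its most abundant gene. This rise was not particular to members. In young A, young B, old A and old B the list summed to 1610, 1835, 2777 and 2968 CPM in HSC-like cells with Vwf. In kept cells outside both HSC-like classes it summed to 1515, 1505, 2655 and 2634 CPM.

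Stem cell genes outside the rule gave 4 calls. Of 18 HSC surface and signalling genes, Slamf1 and Sult1a1 rose and Socs2 fell (median 0.24). Slamf1 went from 16.1 and 26.2 CPM to 46.5 and 50.6 (1.26 ± 0.28, edgeR adjusted p = 0.029), and Sult1a1, a sulfotransferase, from 47.6 and 62.9 CPM to 259 and 396 (2.51 ± 0.27, edgeR adjusted p = 4.7e-05). Sult1a1 was also called by DESeq2 (adjusted p = 2.7e-06) and Slamf1 was not. Procr stood at 136, 183, 222 and 238 CPM (0.52 ± 0.25, edgeR adjusted p = 0.57) and Esam at 99.4, 112, 162 and 156 CPM (0.57 ± 0.24, edgeR adjusted p = 0.43), which did not pass although the ages did not overlap. Of 24 HSC transcription factors, 20 had values above 0 (median 0.34), and 1 rose, Egr1, a factor that restrains HSC division, at 81.9, 10.5, 169 and 50.2 CPM. The old pool was higher on both platforms, by 1.03 on A and 2.16 on B (log2 of CPM + 1), although young A lay above old B. Without old A, in a fit without the block, its log2 fold change was 0.18, and DESeq2 did not call it (adjusted p = 0.70).

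Immediate-early genes, which respond within minutes to handling as well as to signals, were highest in old A. Of 16 tested, 9 rose, Jun, Junb, Dusp1, Zfp36, Egr1, Btg2, Klf2, Nr4a1 and Nr4a2, and the median log2 fold change was 1.63. Their summed level with the rest of the list was 1951 CPM in young A, 576 in young B, 6957 in old A and 1250 in old B. Jun stood at 463, 131, 1279 and 433 CPM (1.56 ± 0.29, edgeR adjusted p = 0.0089), and Dusp1, a MAP kinase phosphatase, at 70.0, 6.99, 517 and 45.2 CPM (2.78 ± 0.30, edgeR adjusted p = 4.7e-05). Within each facility the old pool was higher, by 1.46 on A and 1.72 on B for Jun and by 2.87 and 2.53 for Dusp1 (log2 of CPM + 1), and DESeq2 called both (adjusted p = 0.025 and 3.0e-05). Young A lay above old B for both genes, and without old A, in a fit without the block, the log2 fold changes were 0.70 and 0.27 with no call. Zfp36 stood at 78.0, 26.2, 227 and 39.4 CPM (1.17 ± 0.28), and DESeq2 did not call it. Its log2 fold change turned to -0.31 without old A. The part that sample handling had in these values was not tested.

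Of 6 antigen presentation genes of class II tested, H2-Eb1, H2-Ab1, H2-Aa and Cd74 rose, with the old pool higher on both platforms (median 1.37), and H2-DMa and H2-DMb1 had values of 0.42 and 0.44. H2-Eb1 (chr17:34305867-34316674) went from 26.9 and 43.7 CPM to 82.1 and 191 (1.80 ± 0.26, edgeR adjusted p = 0.0011), and Cd74, the invariant chain, from 142 and 255 CPM to 431 and 649 (1.45 ± 0.27, edgeR adjusted p = 0.0092). DESeq2 called H2-Eb1 alone of the 4 (adjusted p = 0.036, against 0.056 for Cd74, 0.15 for H2-Aa and 0.25 for H2-Ab1), and none was called with 1 pool left out. Of 14 class I genes and 19 interferon response genes, none was called (medians 0.19 and 0.01). In these lists H2-D1 stood at 1463, 1377, 2282 and 1982 CPM, B2m at 4152, 5300, 5259 and 5529, Bst2 at 154, 211, 158 and 199, and Ifi27 at 84.3, 122, 104 and 143.

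Some genes of mature lymphocytes were counted in members, mostly in old A, and in other cells of old A and of old B as well. Of 7 B lymphocyte and plasma cell genes tested, Igkc, Igha, Ighm and Jchain rose, and the list summed to 226 and 217 CPM in young A and B, 1293 in old A and 227 in old B. In old A the list summed to 1363 CPM in neutrophil-primed-like and 1189 CPM in erythroid-primed-like cells, so that members lay between the primed classes. In kept cells outside both HSC-like classes it summed to 758 and 620 CPM in young A and B, 6131 in old A and 2906 in old B. Members lay below these cells in every pool. Igkc, the most abundant gene of the list, stood at 61.2, 50.7, 675 and 75.8 CPM, Ighm at 15.0, 5.24, 94.3 and 6.57, and Jchain at 10.1, 3.49, 87.4 and 1.93. Of the 4 genes that rose, Igha alone was called by DESeq2. In old A, Igkc was found in 448 of 462 members with at most 14 UMIs in a cell, while Ms4a1, Pax5 and Ighd, which mark B cells, were at 0 in all pools. Without old A the log2 fold changes of Ighm and Jchain were -0.63 and -1.84, and none of the 4 was called.

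Lists of other lineages gave few or no calls. Of 11 neutrophil and monocyte genes none was called (median -0.39), with Prtn3 at 438, 620.2, 979 and 1350 CPM and Plac8 at 187, 136, 76.8 and 100.1. Of 10 erythroid genes none was called (median -0.18), with Car2 at 1561, 1644, 1480 and 1610.3 CPM and Blvrb at 91.7, 75.1, 92.6 and 131. None of 4 basophil and mast cell genes was called (median -0.37), and Mcpt8 (76.6, 21.0, 63.6 and 9.66 CPM) and Prss34 (71.7, 24.5, 61.0 and 10.8 CPM) were lower in the B pools and, on each platform, lower in the old pool. Lyz2 (353, 384, 428 and 456 CPM) and Cd68 (5.95, 8.73, 7.25 and 8.89 CPM) of the mature granulocyte and macrophage list were not called. Nkg7, the only T and NK cell gene tested, fell from 60.5 and 61.1 CPM to 30.0 and 24.0 (-1.19 ± 0.25), with Cd3d, Cd8a and Ncr1 at 0. Nkg7 was not called by DESeq2. Kdr, the only stromal and endothelial gene tested, stood at 2.45, 1.75, 12.2 and 5.02 CPM and was not called, with Cdh5, Lepr, Col3a1 and Dcn at 0. Of the members, 45, 1, 72 and 3 also met the marker count of a neutrophil- or erythroid-primed class, and without such cells 72 genes were called higher and 22 lower in old members.

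Of 16 adhesion and junction genes, Jam2 and Alcam rose. Jam2, a junctional adhesion molecule, went from 9.80 and 3.49 CPM to 43.8 and 44.1 (2.41 ± 0.36, edgeR adjusted p = 0.0013), and Alcam from 29.4 and 43.7 CPM to 121 and 66.5 (1.41 ± 0.30). Neither was called by DESeq2 (adjusted p = 0.057 for Jam2). None of 17 metabolic and mitochondrial genes and none of 14 ribosome biogenesis and Myc genes was called (medians -0.10 and -0.10). Ldha stood at 625, 533, 970.4 and 920.3 CPM, Cox4i1 at 1072, 1041, 1031 and 1147, Npm1 at 1673, 1771, 1386 and 1813 and Ncl at 722, 552, 513 and 673. Of 22 genes that the study itself named for ageing in these samples, 10 rose and Cd34 fell (median 1.02), which is no independent evidence of their direction. Cd34, a sialomucin lost by the most primitive mouse HSCs, went from 183 and 168 CPM to 80.8 and 45.6 (-1.54 ± 0.25, edgeR adjusted p = 0.0030), and was detected in 39.6%, 39.0%, 23.2% and 13.1% of thinned members. It was not called by DESeq2 (adjusted p = 0.075).

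**Figure D5:**
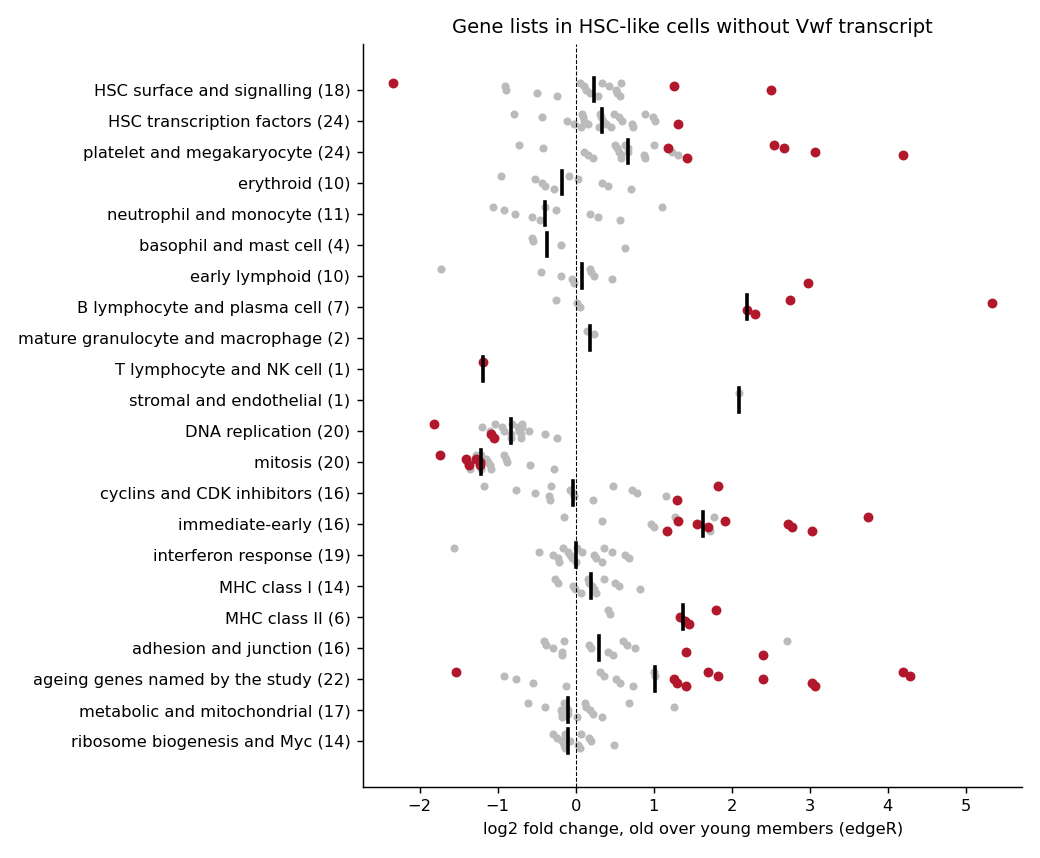
Log2 fold change (old over young members, edgeR) of each tested gene, by list, with the number of genes tested in brackets, calls at an adjusted p under 0.05 in red and the list median as a black bar. The medians of mitosis (-1.22) and DNA replication (-0.82) lie left of 0 and those of immediate-early (1.63) and MHC class II (1.37) genes to the right.

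Members also differed from each other within a pool. Of 1998 genes at a mean of 50 CPM or more in thinned members of each pool, those with the largest excess variance over counting noise at 3000 UMIs (variance minus mean, over the squared mean, lowest of the 4 pools) were Meg3 (3.49), Lockd (2.93), Cks2 (2.56), Hmgb2 (2.42), Fos (2.10), Cks1b (1.81), Cd74 (1.68), Pf4 (1.21), Hist1h2bc (0.988) and Smc4 (0.833). Meg3 is an imprinted long noncoding RNA of quiescent HSCs and stood at 95.2, 180, 182 and 224 CPM. Cks2, Cks1b, Hmgb2 and Smc4 act in the cell cycle or on mitotic chromosomes, and Lockd is transcribed beside the CDK inhibitor gene Cdkn1b. Cd74 had 19.2% of its UMIs in young B in 1 cell, against 2.50% in old B, so that 1 cell held a large part of its count in young B. For Pf4, 1 cell held 4.26%, 23.1%, 19.4% and 12.3% of the UMIs in young A, young B, old A and old B. For Hmgb2 these shares were 4.11%, 21.1%, 5.28% and 7.41%.

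The comparison with HSC-like cells in which Vwf was seen is part of the rule and was described without a test. Members were lower in every pool for Sdpr (27.3, 22.7, 176 and 153 CPM against 37.0, 54.8, 214 and 188) and for Ramp2, a receptor activity-modifying protein (15.4, 10.5, 47.8 and 80.8 CPM against 30.5, 27.4, 64.7 and 98.7). For Ramp2 the direction turned without cells of a reference class, with a mean log2 ratio over pools of 0.47. They were higher in every pool for Cd37, a leukocyte tetraspanin (58.4, 57.6, 30.7 and 23.6 CPM against 30.5, 27.4, 19.8 and 17.9). Among the 20 genes picked for the largest difference in their least different pool, that difference lay between 0.234 and 0.387 on the log2(CPM + 1) scale in size. It was larger in other pools, as for Mfap2 in young A (-1.68), and in young B for Pard3b (-1.83) and Plekha2 (1.68), where the cells with Vwf numbered 15. The remaining genes lower without Vwf were Mfap2, Pard3b, Hells, Vps52, Tmem107, Ccser2, Tle6 and Cic, and the remaining higher ones were Abtb1, Plekha2, Zfp865, Ypel5, Pno1, Tbce, Prkd2 and the unnamed loci RP23-60P18.10 and 4930519L02Rik.

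Whether age acted differently in members than in cells with Vwf was tested with a class by age term. In cells with Vwf, 77 of 9282 genes were higher (0.83%) and 11 lower (0.119%) with age by edgeR (0.948% in all), against 2 by DESeq2, both higher (0.0215%). Nupr1 rose there from 34.9 and 146 CPM to 474 and 597 (2.97), Selp from 4.36 and 0 CPM to 128 and 105, and none of the 19 mitosis genes tested was called (median -0.37). The balance of directions in cells with Vwf turned without old A, in a fit without the block, where lower genes outnumbered higher ones. The class by age term was called for 9 of 10971 genes (0.082%), 1 with a larger (0.00911%) and 8 with a smaller (0.0729%) old over young ratio in members, by DESeq2 for none (105 at an unadjusted p under 0.05), and for none when the pool block was dropped, with all pools or with any 1 left out. The balance of directions depended on the marker minimum: with at least 2 markers 10 genes had a larger and 4 a smaller ratio in members, and 4 of the 9 were among them. For the other genes, mitosis genes other than Ube2c and Cdc20 included, a difference between the classes was not shown. On simulated data for this term, edgeR found 24 of 99 genes set to differ 2-fold and 91 of 101 set to differ 4-fold. Most 2-fold differences were thus missed. How far the 15 cells with Vwf in young B limit the precision of the term was not tested.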

How the data were processed

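Each of the 4 pools had 1 deposited matrix of UMI counts, not normalized, over 28692 genes. Per the submitters' processing notes, the authors used Cell Ranger 2.2.0 and the mouse builds mm10 and GRCm38.p4. Cells whose log UMI count lay over 2 SD from their pool's mean were dropped (14915 of 15566 kept), and no doublet caller was run. Pools shared 10 to 29 barcodes. Thinning drew 3000 UMIs per cell and left out 0, 50, 176 and 4 shallower kept cells of young A, young B, old A and old B, of which 13 were members (old A). UMIs were summed per pool and class. Ages were compared with edgeR 4.0.16 (quasi-likelihood, TMM, filterByExpr, platform as block, Benjamini-Hochberg, threshold 0.05) under R 4.3.3, and DESeq2 1.42.0 was an alternative. Shares were compared by exact permutation, two-sided. The fits were tested on simulated data.

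The platform letters pair the pools by the labels and the study's batches, and deviations from the age means correlated at 0.433 over 10443 genes. Nothing shows more than 2 pools per age. P-values of the age fits measure the spread between pools, with information on that spread shared across genes. Those of the class by age term, with pool as block, measure how the difference between the classes varied between pools. The members and gene lists were chosen with earlier results of these data known. Genes were named by rule: the 10 largest changes per direction among calls with a mean of 20 CPM or more that agree in direction on both platforms, up to 4 called genes per list by mean CPM (otherwise the 2 highest), up to 5 genes per direction called for class by age at 20 CPM or more (the other called ones are given in the closing section), the 10 genes per direction with the largest minimum difference between classes over pools, the 10 most variable, and the 9 rule genes. Genes named beside these were chosen after their values were seen. Erythroid-primed-like and neutrophil-primed-like cells held at least 3 of 5 markers (Klf1, Car1, Epor, Gata1 and Aqp1, and Mpo, Elane, Ctsg, Prtn3 and Ms4a3). Coordinates are from GENCODE M21 and promoters from RefSeq (GRCm38.p6). Values of some genes that the rule or the lists hold are not reported here.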

Additional observations from a re-analysis of the deposited data

Results flagged for a closer look

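A difference between the classes in their response to age was called for 9 genes by edgeR, by the class by age term (adjusted p under 0.05, Benjamini-Hochberg). DESeq2 called none of them, and none was called in fits without the pool block, with all 4 pools or with any 1 left out. Without the member with most mitosis UMIs in each pool, an alternative added after the data were seen, edgeR called 6 of the 9 and not Ube2c, Tubb4b or Nol12. Values are the log2 old over young ratio in members minus that in HSC-like cells with Vwf, and the effect of the 15 cells with Vwf in young B on them was not tested.

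Sult1a1 was the only gene with a larger ratio in members, at 1.23 ± 0.24 (SE, edgeR adjusted p = 0.00053). It stood at 47.6, 62.9, 259 and 396 CPM in members of young A, young B, old A and old B and at 124, 192, 323 and 406 CPM in cells with Vwf, so that the classes were further apart in the young pools. Pf4 had a difference of -1.97 ± 0.23 (edgeR adjusted p = 6.6e-14), with 107, 68.1, 71.5 and 62.6 CPM in members and 78.4, 119, 77.6 and 419 CPM with Vwf, and 1 cell held 24.4% of the Pf4 UMIs of old B with Vwf. Without that cell old B stood at 319 CPM. In addition, 1 cell held 8 of the 13 Pf4 UMIs of young B with Vwf and 1 cell 74 of the 192 of old A, and without them those pools stood at 48.0 and 47.9 CPM.

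Among division genes, Cdc20 differed by -1.52 ± 0.33 (edgeR adjusted p = 0.0083), Ube2c by -1.21 ± 0.28 (edgeR adjusted p = 0.025) and Hmgb2, a chromatin protein abundant in dividing cells, by -0.60 ± 0.13 (edgeR adjusted p = 0.0083). With Vwf, Cdc20 was counted at 47.9, 9.13, 40.0 and 49.3 CPM, where 1 cell held 12 of the 22 UMIs of young A (22.4 CPM without it) and young B had 1 UMI in all. Ube2c was counted at 78.4, 0, 37.6 and 76.2 CPM, and 1 cell of young A held 63.9% of its UMIs there, without which young A stood at 29.1 CPM. The tubulin gene Tubb4b differed by -0.66 ± 0.15 (edgeR adjusted p = 0.020) and the nucleolar gene Nol12 by -1.42 ± 0.35 (edgeR adjusted p = 0.048). In young B with Vwf, the top cell of each gene held 2 of 5 Nol12, 16 of 39 Hmgb2, 10 of 32 Tubb4b and 8 of 21 Sult1a1 UMIs. Without it, young B went from 45.6 to 29.0 CPM for Nol12 and from 356 to 238 for Hmgb2. Tubb4b went from 292 to 227 CPM and Sult1a1 from 192 to 134.

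The differences of Ighm (-2.73 ± 0.51) and Igkc (-1.84 ± 0.30) were called at edgeR adjusted p = 0.0003 and 5.8e-06. In old A, 1 cell with Vwf held 1329 of 1548 Ighm UMIs and 1 cell held 4872 of 6508 Igkc UMIs. Without the top cell, cells with Vwf of old A stood at 89.1 CPM for Ighm and 666 for Igkc, against 94.3 and 675 CPM in members of that pool.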

How the results depend on the processing

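Age calls in members were 179 with platform as a block and 11 without the replicate block, 35 with DESeq2, 341 without the low-count filter, 47 with at least 4 markers, 13 after thinning to 3000 UMIs, 100 in cells with at least 6000 UMIs and 94 without cells of a reference class, and 0 to 72 with 1 pool left out. Fits with 1 pool left out also drop the block, so the effects of the pool and of the block on those counts cannot be told apart, and they take the spread from the age that kept both pools. In cells with Vwf, 88 calls became 0 by edgeR without the block (259 at an unadjusted p under 0.05), 2 with DESeq2, 54 with at least 2 markers, and 2 to 74 with 1 pool left out (2 without young A). The 9 class by age calls became 0 without the block (117 at an unadjusted p under 0.05), 0 with DESeq2 (105), 5 without the UMI filter (2 larger and 3 smaller, 4 shared) and 14 with at least 2 markers (10 larger and 4 smaller, 4 shared), and 0 in each edgeR fit with 1 pool left out (28 to 361). With at least 4 markers or thinned cells young B had no cell with Vwf, so the last 2 comparisons could not be fitted there. DESeq2's size factors (RLE) moved the median log2 fold change in members by -0.02. Without the member with most mitosis UMIs in each pool, added after the data were seen, 149 of the 179 member calls remained (113 higher and 36 lower). Both share differences kept their sign under every alternative run.

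Among the called genes named here, 4 turned negative without old A, and their log2 fold changes with 1 pool left out ran from -1.84 to 6.51 for Hes1, -1.84 to 3.35 for Jchain, -0.63 to 2.96 for Ighm and -0.31 to 2.08 for Zfp36. The other sign changes of age values were in genes that were not called. With 1 pool left out these were Car2 (-0.31 to 0.13), Blvrb (-0.040 to 0.78), Mcpt8 (-2.24 to 0.54), Prss34 (-2.05 to 0.30), Cd68 (-0.25 to 0.54), Bst2 (-0.41 to 0.31), Ifi27 (-0.18 to 0.65), B2m (-0.11 to 0.46), Cox4i1 (-0.23 to 0.24), Npm1 (-0.51 to 0.19), Ncl (-0.50 to 0.21) and Tubb4b (-0.71 to 0.071). With at least 2 markers, Car2 stood at 0.011, Cd68 at -0.51, Bst2 at 0.15 and Ifi27 at -0.14, and with at least 4, Plac8 at 0.14 and Mcpt8 at 0.26. Cox4i1 stood at -0.0070 with DESeq2 and with RLE factors. In thinned cells Cox4i1 stood at -0.086, Bst2 at 0.074 and Tubb4b at 0.11, and in cells with at least 6000 UMIs Cox4i1 at -0.011 and Cd68 at -0.056. In the description of the classes, the log2 ratio of Ramp2 without over with Vwf (mean of pools) was 0.47 without cells of a reference class. Of the 20 genes described there, 7 moved by more than the SD of the pools with at least 2 markers, 5 in cells with at least 6000 UMIs and a further 3 without cells of a reference class. The cause of these changes was not tested.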
